A study of Mus musculus with 4 samples.

Results

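The genes of glycolysis and of the cellular response to low oxygen were followed in NK (natural killer) and T lymphocytes sorted out of one kind of tumour. The set holds 32 genes, found by symbol among 55450 rows of the expression table, and where a symbol had more than 1 row the row with the highest mean was used. It comprises 17 glycolytic enzymes, 2 regulators of glycolytic flux (Pdk1 and Pfkfb3), the oxygen-sensitive factor Hif1a and 12 genes known as targets of hypoxia-inducible factor (HIF targets). The NK group and the T cell group have 2 libraries each, all from CT26 tumours, a mouse colon carcinoma line, grown under the skin of BALB/c mice. Per the labels, each injection held 500000 live cells in 200 uL. Replicate 1 of each cell type (pool 1) came from 4 pooled mice and replicate 2 (pool 2) from 6, so a library is a pool of mice and carries no information on single animals. No group was treated, and the groups share strain and tumour line. The sources used here do not give the age of the mice, the time of harvest, the oxygen level of the tumours or the sort gate.

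Glycolysis splits glucose into pyruvate through a chain of cytosolic enzymes, and lactate dehydrogenase turns pyruvate into lactate so that the chain can go on without oxygen. Activated lymphocytes are known for raising this pathway even when oxygen is present. When oxygen is scarce, prolyl hydroxylases no longer mark HIF-1 alpha for destruction, and the stabilised factor pairs with ARNT and binds the short DNA words ACGTG or GCGTG near its targets. Many glycolytic enzyme genes are themselves HIF targets, so the enzyme and target classes used here overlap in their biology. HIF-1 alpha is controlled largely at the protein level, and the level of its mRNA is not a measure of its activity.

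HIF core words lay close to the start of most of these genes, and 6 stretches are shown because they belong to genes on which the results turn. Ldha, Aldoa and Hk2 are enzymes with their lowest value in T pool 2, Bnip3 is a HIF target with that pattern, Pgk1 is an enzyme whose NK values lay above its T values, and Hif1a is the factor. Each stretch is 80 bases long, lies before one of the RefSeq starts of the gene, is written 5′ to 3′ on the strand of the gene, and was taken from RefSeq promoter windows of GRCm38.p6. Those of Hif1a, Ldha and Aldoa lie within the span of the annotated gene, which also has a start further upstream, and overlap no annotated exon. Capitals mark ACGTG or GCGTG on either strand, and adjacent matches can overlap. The stretches were picked for holding many matches, so their density of matches follows from that choice.
Ldha, chr7:46845724-46845803, plus strand: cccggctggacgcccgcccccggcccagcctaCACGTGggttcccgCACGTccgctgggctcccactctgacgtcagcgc
Aldoa, chr7:126799311-126799390, minus strand: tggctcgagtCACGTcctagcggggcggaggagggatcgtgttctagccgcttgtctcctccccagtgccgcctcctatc
Hk2, chr6:82774455-82774534, minus strand: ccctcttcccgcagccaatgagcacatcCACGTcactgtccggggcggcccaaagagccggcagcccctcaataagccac
Pgk1, chrX:106186940-106187019, plus strand: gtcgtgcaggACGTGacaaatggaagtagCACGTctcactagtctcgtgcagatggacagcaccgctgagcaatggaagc
Bnip3, chr7:138909554-138909633, minus strand: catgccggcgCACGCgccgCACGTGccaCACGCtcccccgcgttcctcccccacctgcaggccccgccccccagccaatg
Hif1a, chr12:73907722-73907801, plus strand: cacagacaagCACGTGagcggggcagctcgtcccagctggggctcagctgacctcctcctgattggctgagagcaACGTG
RefSeq promoter windows of 300 bases (250 before to 50 after a start) were found for 31 of the 32 genes and not for Bnip3l. At least 1 match on either strand was present for 29 of these 31 genes, and for Gpi1 and Tpi1 no window held these letters. Of all 27025 genes with such windows, 46.7% had at least 1 match. Of all 32851 promoter windows of the table, 43.8% held a match, against 80.9% of the 47 windows of these genes. The windows of these genes also held more CpG pairs (median 21 per window, against 7 over all windows), and both words contain CpG. A match is a description of the letters and not a binding site.

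The libraries held 2228226 and 2665928 recovered reads in NK pools 1 and 2, against 2067728 and 2893240 in T pools 1 and 2. Ribosomal RNA genes took 36.9% and 38.8% of the NK reads, against 52.4% and 42.7% of the T reads. Levels are given as normalized CPM, which are reads per 1 M reads of a library scaled by the authors, with no correction for gene length. The labels held against marker genes: 9 of 10 NK markers passed the test as higher in NK cells, and 11 of 11 T cell markers as higher in T cells. Summed macrophage markers (12 genes) had NK values of 1047 and 230 and T values of 270 and 27.6 in pools 1 and 2, and the mean of each was higher in NK cells. Summed proliferation markers (8 genes) had NK values of 873 and 425 and T values of 683 and 290 in pools 1 and 2. B cell markers summed to at most 2.83 in any library. Of 12 tumour or stroma markers, 5 had 0 reads in all 4 libraries (Krt8, Krt18, Krt19, Dcn and Sparc). Col1a2, a collagen gene, had NK values of 8.95 and 13.8 and 0 T reads (limma adjusted p = 0.0342). Cdh1 had NK values of 19.1 and 47.9 and T values of 10.5 and 27.6, and Epcam had 7 NK reads and 20 T reads. Of the remaining markers, Col3a1 had 3 NK reads and 0 T reads. Col1a1, Pdgfrb and Lgals7 had 0 NK reads, and 1, 9 and 12 T reads in that order.

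No gene of the set passed the test between NK cells and T cells. With limma on log2(normalized CPM + 1) and a Benjamini-Hochberg adjusted p under 0.05 over 12128 genes, 0 of the 30 measured members were called, against 2.33% of all genes tested (1.24% higher in NK and 1.09% higher in T). With 2 pools per cell type (2 residual degrees of freedom), these p-values set a difference against the spread between pools. Limma estimates that spread for each gene together with spread shared across genes. At an unadjusted p under 0.05 there were 2, Vegfa towards NK cells and Hif1a towards T cells, against 12.8% of all genes (6.51% and 6.3% by direction). The other tools gave 0 as well (edgeR, which called 2.73% of all genes, and DESeq2, which called 3.55%). Pgam1 and Adm had a mean under 1 normalized CPM and were not tested. Among the 30 tested genes the NK and T values did not overlap for 11, 8 of them with NK above T and 3 with T above NK, against 43.4% of all genes tested (22.1% and 21.3% by direction). The log2 fold change was positive for 19 of 30, against 50.9% of all genes. The sign of the NK minus T difference was the same in both pools for 20 of 30, against 60.9% of all genes.

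**Figure D1:**
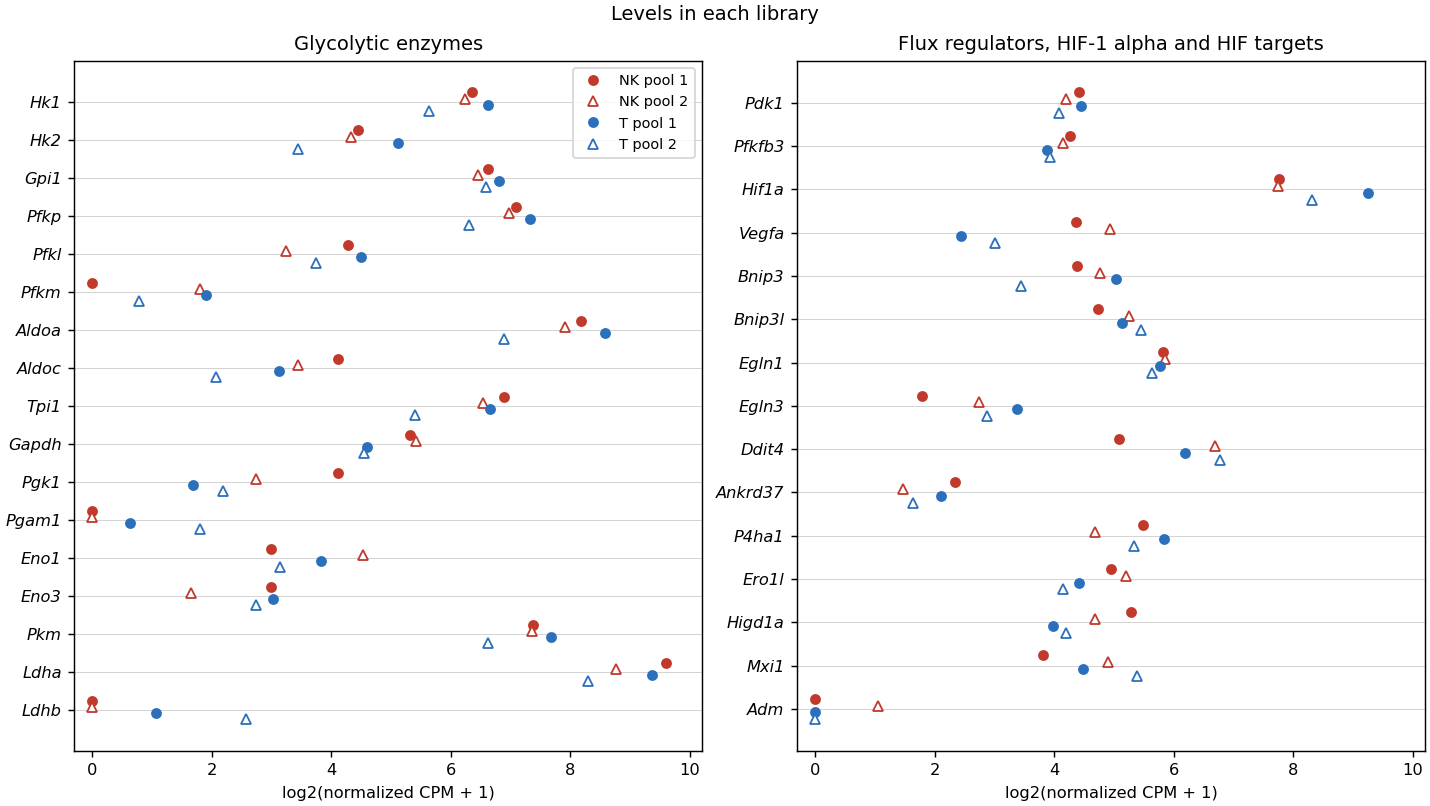
Level of each of the 32 genes in each library on a log2(normalized CPM + 1) axis, with NK libraries in red and T libraries in blue, pool 1 as filled circles and pool 2 as open triangles. Both NK values of Vegfa lie to the right of both T values, both T values of Hif1a lie to the right of both NK values, and for 9 enzymes the symbol of T pool 2 is the leftmost.

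Libraries with the same replicate number were taken as a pair, since per the design text of the series a number stands for one pool of mice, read here as the same mice for both cell types. A limma fit with the pool as a replicate block called 2 members, Hif1a and Vegfa, 1 in each direction, and 8.24% of all genes tested (4.26% higher in NK and 3.97% higher in T). That fit has 1 residual degree of freedom and rests mainly on spread shared across genes.

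Vegfa, the secreted growth factor of blood vessels and a classic HIF target, had higher values in NK cells in both pools. It stood at 19.5 and 29.4 normalized CPM in NK pools 1 and 2, against 4.41 and 7.09 in T pools 1 and 2. Both NK values were above both T values, and the NK minus T difference was 1.92 in pool 1 and 1.91 in pool 2 on the log2(normalized CPM + 1) scale. The log2 fold change was 1.92 (SE 0.55, limma adjusted p = 0.126), with an adjusted p of 0.107 by edgeR, 0.137 by DESeq2 and 0.013 with the replicate block. By recovered reads, 131 for NK and 28 for T, the ratio was 4.11 with an exact 95% binomial interval of 2.72 to 6.42, which covers counting error only. The gene (ENSMUSG00000023951.17) is on chromosome 17, minus strand, from 46016993 to 46032369 (GRCm38), and no other annotated exon overlaps its exons. Macrophages also make Vegfa. Macrophage marker sums for NK and T cells were 1047 and 270 in pool 1, and 230 and 27.6 in pool 2. They were higher in NK cells within each pool, as Vegfa was. Between the NK pools the sum was higher in pool 1, whereas Vegfa was higher in pool 2. The part of macrophage RNA in the Vegfa level was not tested. In bulk libraries such as these, fewer cells that express a gene and less RNA per cell cannot be told apart.

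Hif1a, which encodes the oxygen-regulated subunit of HIF-1, had lower values in NK cells. It stood at 216 and 213 normalized CPM in NK pools 1 and 2, against 607 and 316 in T pools 1 and 2. The NK libraries lay close together and below both T libraries, which differed from each other by more than the gap between NK cells and T pool 2. The log2 fold change was -1.03 (SE 0.35, limma adjusted p = 0.218), with an adjusted p of 0.181 by edgeR, 0.0984 by DESeq2 and 0.00598 with the replicate block. Within pools the NK minus T difference was -1.49 in pool 1 and -0.56 in pool 2 (log2 scale). Hif1a lies on the plus strand of chromosome 12 at 73901375 to 73947530. Its exons overlap the gene models Gm49321 on the same strand and Gm15283 on the opposite strand, so some reads may not be separable. T pool 1, the library with the most Hif1a, was highest for 3 of 11 tested HIF targets, against 26.8% of all genes tested.

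Among the enzymes of glycolysis, the order of NK and T values differed between the pools. In pool 1, 5 of the 16 tested enzymes had a higher value in NK cells than in T cells (49.8% of all genes tested), and the median NK minus T difference was -0.23 on the log2 scale. In pool 2, 12 of 16 had a higher value in NK cells (50.7% of all genes), and the median difference was 0.70. Over all genes tested the medians were 0.00 and 0.00055. Averaged over pools, the median log2 fold change of the enzymes was 0.21, against 0.02 for all genes tested. Leaving out T replicate 2 turned this median to -0.31, and leaving out T replicate 1 made it 0.73, so its sign rests on which T library is kept. Whether the difference between the pools is larger than the spread between pools of the same kind could not be tested with 1 library per pool and cell type.

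**Figure D2:**
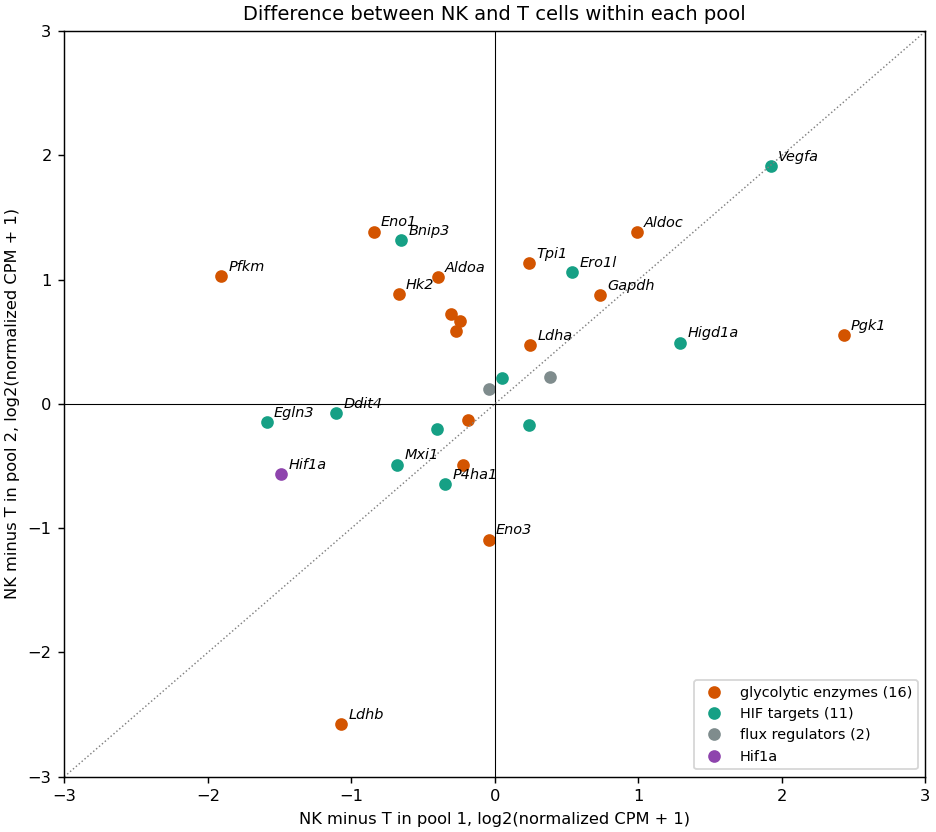
NK minus T difference in pool 1 (horizontal axis) and pool 2 (vertical axis) on the log2(normalized CPM + 1) scale for the 30 tested genes, coloured by class, with the line of equal differences dotted. Vegfa sits on the dotted line near 1.92 in both pools, whereas Aldoa, Hk2, Eno1, Pfkm and the target Bnip3 lie in the upper left, with NK below T in pool 1 and above T in pool 2.

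The library that stood out for the enzymes was T pool 2. It had the lowest of the 4 values for 9 of 16 tested enzymes, against 25.5% of all genes tested, and T pool 1 had the highest value for 9 of 16, against 26.8% of all genes. Both held for 5 enzymes, against 8.17% of all genes. Summed over the 17 enzymes, levels were 1787 and 1327 normalized CPM in NK pools 1 and 2, against 1822 and 865 in T pools 1 and 2. Without Ldha, the highest in measured level, the sums were 1009 and 892 for the NK pools and 1166 and 552 for the T pools. T pool 1 was above T pool 2 for 14 of 16 enzymes (47.3% of all genes tested), with a median pool 2 minus pool 1 difference of -1.01 on the log2 scale. For 8 enzymes the ratio of T pool 2 to T pool 1 lay below 1 with its whole counting interval, against 20.6% of all genes tested, and for Ldhb above 1, against 23.5%. In the NK libraries pool 1 was above pool 2 for 12 of 16 enzymes (47.6% of all genes tested), with a median difference of -0.15. Here the ratio of pool 2 to pool 1 lay below 1 with its whole counting interval for 6 enzymes, against 19.1% of all genes. It lay above 1 for 2, against 21% of all genes. Counting intervals narrow with more reads, and the enzymes were not matched to other genes by reads. These interval shares for the T and NK libraries are thus not like for like. Of the marker sums, those of proliferation (290), macrophages (27.6), neutrophils and dendritic cells had their lowest value in T pool 2 too. Neutrophil markers (8 genes, Ly6g at 0) had NK sums of 25.2 and 29.4 and T sums of 95.8 and 13.5, and dendritic markers (6 genes, Flt3 at 0) had NK sums of 5.29 and 7.09 and T sums of 11.01 and 0.709. Both sums were thus highest in T pool 1 and lowest in T pool 2, the order seen in 5 enzymes. S100a8 (26.4) and S100a9 (62.8) made up most of the neutrophil sum in T pool 1. Single markers varied, with S100a8, S100a9, Csf3r, Cxcr2, Xcr1, Cd209a and Siglech highest in T pool 1. Retnlg, Mmp8, Mmp9, Zbtb46 and Clec9a were highest in an NK library. The part of neutrophil and dendritic cell RNA in the enzyme levels was not tested.

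**Figure D3:**
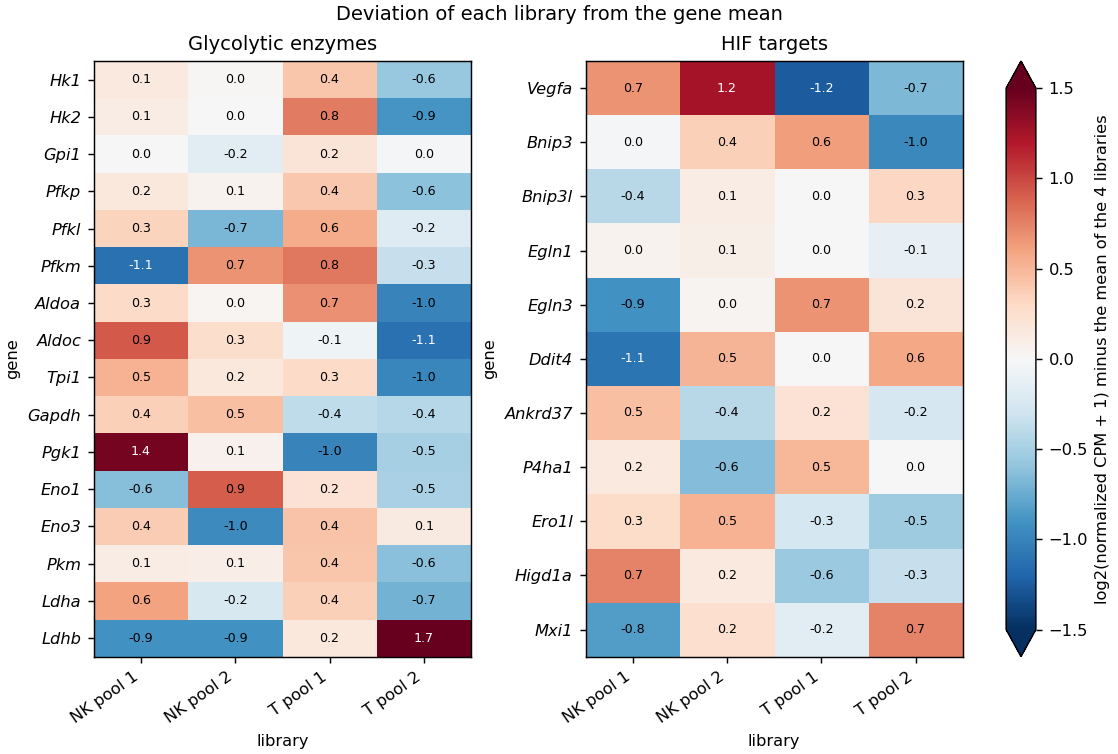
Deviation of each library from the mean of the 4 libraries for the 16 tested enzymes (left) and the 11 tested HIF targets (right), in log2(normalized CPM + 1), red above and blue below the mean. The column of T pool 2 is blue for most enzymes, while among the targets Vegfa, Ero1l and Higd1a are red in both NK libraries and Ddit4 and Mxi1 are lowest in NK pool 1.

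Hexokinases, which trap glucose in the cell as glucose 6-phosphate, followed this order of libraries. Hk1 stood at 80.9 and 74.1 normalized CPM in NK pools 1 and 2, against 98.0 and 48.9 in T pools 1 and 2. Hk2, the isoform induced on lymphocyte activation, had NK values of 20.7 and 19.1 and T values of 33.6 and 9.92. In both genes the NK values lay between the 2 T values. Per kb of exon in coding transcripts, mean levels for NK and T were 12.4 and 11.8 for Hk1, and 3.34 and 3.64 for Hk2, so Hk1 was the more abundant isoform in each group. The limma adjusted p was 0.910 for Hk1 and 0.963 for Hk2. Gpi1, the isomerase that makes fructose 6-phosphate, differed little between libraries, with NK values of 97.6 and 86.9 and T values of 111 and 95.0 (adjusted p = 0.888).

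Phosphofructokinase, the committed step, was mainly the platelet form Pfkp. It stood at 135 and 125 normalized CPM in NK pools 1 and 2, against 160 and 78.3 in T pools 1 and 2. Pfkl, the liver form, had NK values of 18.3 and 8.51 and T values of 21.5 and 12.4, and Pfkm, the muscle form, did not exceed 2.75 in any library (7 reads in each cell type). Per kb mean levels for NK and T were 29.0 and 26.6 for Pfkp, and 3.52 and 4.45 for Pfkl. The exons of Pfkp overlap those of Pitrm1 on the opposite strand, and 15.4% of its 50-base words occur in that gene.

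Aldolase, which splits the 6-carbon sugar, showed the widest gap between the T libraries among the abundant enzymes. Aldoa stood at 289 and 240 normalized CPM in NK pools 1 and 2, against 381 and 118 in T pools 1 and 2. T pool 2 held 0.309 of the level of T pool 1 (counting interval 0.270 to 0.353), while NK pool 2 held 0.831 of NK pool 1 (0.747 to 0.925). The log2 fold change was 0.31 (SE 0.47, limma adjusted p = 0.839), made of -0.40 in pool 1 and 1.02 in pool 2. Aldoc, the brain form, was less abundant (4.40 per kb for NK and 1.83 for T, against 116 and 109 for Aldoa) and did not overlap between groups, with NK values of 16.3 and 9.93 and T values of 7.71 and 3.19. Its log2 fold change was 1.19 (SE 0.64, adjusted p = 0.501). Tpi1, triosephosphate isomerase, had NK values of 118 and 91.5 and T values of 99.7 and 41.1, with a ratio of recovered reads of 1.62 (counting interval 1.41 to 1.87) and an adjusted p of 0.565.

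The later steps of the pathway, from Gapdh to Ldhb, include the enzymes whose reads are hardest to assign. Gapdh, which makes the first NADH of the pathway, stood at 39.0 and 41.8 normalized CPM in NK pools 1 and 2, against 23.1 and 22.3 in T pools 1 and 2. Within each cell type the pools were nearly equal, and both NK values were above both T values (log2 fold change 0.80, SE 0.41, limma adjusted p = 0.461). Pgk1, which makes the first ATP, had NK values of 16.3 and 5.67 and T values of 2.20 and 3.54. Its log2 fold change of 1.49 (SE 0.72, adjusted p = 0.426) rested on 56 NK reads and 14 T reads, and its NK minus T difference was 2.43 in pool 1 and 0.56 in pool 2. Pgam1, the mutase, had 0 NK reads and 8 T reads (1 in T pool 1 and 7 in T pool 2) and was not tested. Against a floor of 3 reads summed over both NK libraries (0.568 normalized CPM), and with the T reads taken without error, it was at least 3.04-fold lower in NK cells. The exact 95% binomial interval, which also carries the counting error of the T reads, allowed an NK to T ratio of up to 0.515. In pool 1 alone the interval allowed a ratio of up to 28.8.

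These low levels stand beside shared sequence. Of the 50-base words in the coding transcripts of Gapdh, 58.4% also occur in annotated transcripts of other genes, 222 of them. The share was 68.0% for Pgk1, 41.5% for Pgam1 and 49.5% for Eno1. At 100 bases these shares were 53.1%, 67.0%, 39.7% and 39.5% in the same order. In all, 10 of the 32 genes shared at least 20% of their 50-base words, 7 of them enzymes and 3 of them HIF targets (Bnip3, Bnip3l and Higd1a), and 10 shared none. The exons of 12 members overlap a gene on the opposite strand, among them Hk1, Gpi1, Aldoa, Tpi1 and Gapdh, and those of Pfkm, Pkm and Hif1a overlap one on the same strand. The sources used here do not say how reads that map to several places were treated, so levels of these genes should not be compared with those of other genes. The part of shared sequence in their levels was not tested.

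**Figure D4:**
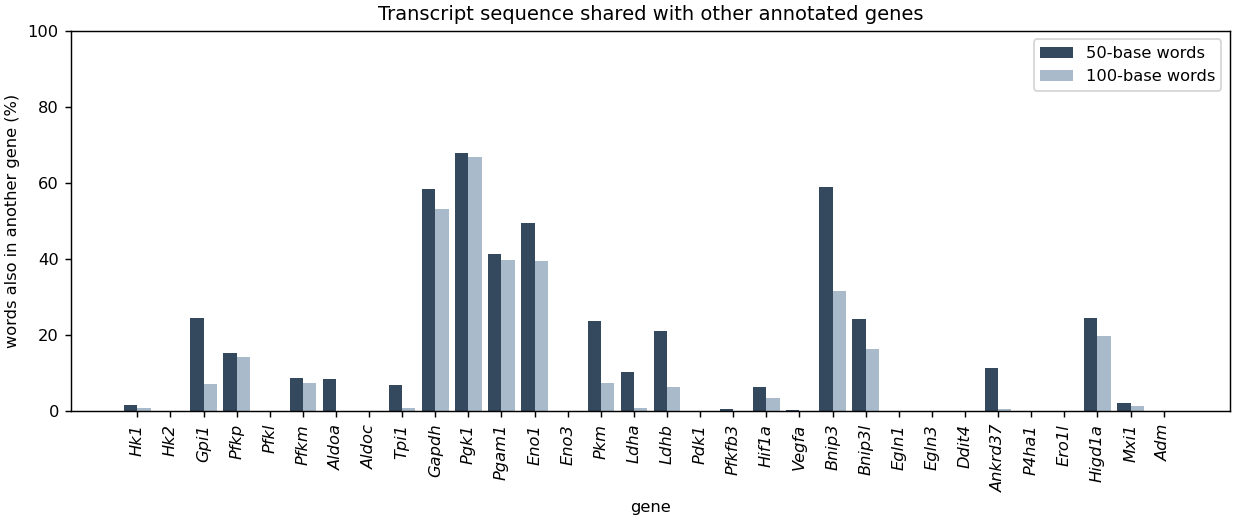
Percentage of the 50-base (dark) and 100-base (light) words of each gene's coding transcripts that also occur in an annotated transcript of another gene (GENCODE M21). Pgk1, Bnip3, Gapdh, Eno1 and Pgam1 have the tallest bars, whereas Hk2, Aldoc, Eno3, Egln1, Ddit4 and Ero1l are at 0.

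Enolase is a case in which much sequence is shared with a measured gene. Eno1, the enolase of most tissues, stood at 6.91 and 22.0 normalized CPM in NK pools 1 and 2, against 13.2 and 7.80 in T pools 1 and 2. Eno1b, a closely related gene that holds 48.4% of the 50-base words of Eno1, had NK values of 121 and 75.2 and T values of 50.7 and 40.4. Summed, the 2 genes came to 128 and 97.1 normalized CPM in the NK libraries and 63.9 and 48.2 in the T libraries, with no overlap. The log2 fold change of the sum was 0.99 (SE 0.36, limma adjusted p = 0.245), whereas that of Eno1 alone was 0.27 (SE 0.65, adjusted p = 0.903). Eno1b and this sum were chosen after their values were seen. Eno3, the muscle enolase, had NK values of 6.91 and 2.13 and T values of 7.16 and 5.67.

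Pkm encodes a pyruvate kinase. It stood at 164 and 162 normalized CPM in NK pools 1 and 2, against 203 and 97.8 in T pools 1 and 2. Here too the NK values lay between the T values (log2 fold change 0.21, SE 0.38, limma adjusted p = 0.870). A gene-level value does not separate its splice forms M1 and M2. Ldha, which makes lactate, had the highest measured level of the set, also per kb (means of 231 for NK and 185 for T). As said above, levels of genes with much shared sequence, such as Gapdh and Eno1, should not be compared with it. Ldha had NK values of 778 and 435 and T values of 656 and 313. In both cell types pool 2 was below pool 1, at 0.560 of it in NK cells (counting interval 0.520 to 0.601) and 0.477 in T cells (0.436 to 0.520). Its log2 fold change was 0.36 (SE 0.41, adjusted p = 0.769), positive in both pools (0.25 and 0.48). Ldhb, the form that favours pyruvate, had 0 NK reads and 16 T reads (1.10 and 4.96 normalized CPM in T pools 1 and 2), at least 6.07-fold lower in NK cells against the same floor with the T reads taken without error. Its exact 95% binomial interval allowed an NK to T ratio of up to 0.228, and of up to 3.93 in pool 1 alone. It passed the filter on low values through its T libraries, and its limma adjusted p was 0.450.

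The regulators of flux differed little between the groups in their values. Pfkfb3, whose product fructose 2,6-bisphosphate activates phosphofructokinase, stood at 18.3 and 16.7 normalized CPM in NK pools 1 and 2, against 13.8 and 14.2 in T pools 1 and 2 (limma adjusted p = 0.848). Pdk1 is a HIF target whose product inhibits pyruvate dehydrogenase. It had NK values of 20.3 and 17.4 and T values of 20.9 and 15.9 (adjusted p = 0.982). At 65 to 99 reads per cell type, the counting intervals of the NK to T ratio ran from 0.895 to 1.74 for Pfkfb3 and from 0.775 to 1.42 for Pdk1.

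The HIF targets did not move as a block. Their median log2 fold change was 0.03 over 11 tested genes, with 6 positive and 5 negative, and the medians were -0.35 in pool 1 and -0.08 in pool 2. Summed over 12 targets, levels were 285 and 375 normalized CPM in NK pools 1 and 2, against 322 and 339 in T pools 1 and 2. These sums differed less between libraries than those of the enzymes. Their highest value was in NK pool 2 and not in T pool 1. Ddit4, the target with the highest mean level (78.9), had NK values of 32.9 and 102 and T values of 72.1 and 108. The lowest of the target sums, in NK pool 1, thus rested partly on Ddit4. The NK minus T medians of enzymes and targets differed by 0.18 over both pools. That difference was -0.17 without T replicate 2 and 0.54 without T replicate 1.

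Beside Vegfa, NK values lay above T values without overlap for Ero1l, Higd1a and Egln1. Ero1l, an oxidase that forms disulfide bonds in the endoplasmic reticulum, stood at 30.1 and 35.8 normalized CPM in NK pools 1 and 2, against 20.4 and 16.7 in T pools 1 and 2. Its log2 fold change was 0.80 (SE 0.44, limma adjusted p = 0.504). Higd1a, a small protein of the mitochondrial inner membrane, had NK values of 37.8 and 24.8 and T values of 14.9 and 17.4 (log2 fold change 0.89, SE 0.46, adjusted p = 0.471). Its exons overlap Gm47112 on the opposite strand. Egln1, the prolyl hydroxylase PHD2 that senses oxygen and is itself induced by HIF, had NK values of 55.3 and 56.7 and T values of 53.4 and 48.9. The gap was small beside its SE (0.13, SE 0.36, adjusted p = 0.918), which includes spread shared across genes. The pool 2 minus pool 1 difference of Egln1 was 0.04 in NK cells and -0.12 in T cells (log2 scale).

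T values lay above NK values for Egln3, the hypoxia-induced hydroxylase PHD3, at 2.44 and 5.67 normalized CPM in NK pools 1 and 2 against 9.36 and 6.38 in T pools 1 and 2 (limma adjusted p = 0.654). P4ha1, which hydroxylates prolines of collagen, had NK values of 43.9 and 24.8 and T values of 56.2 and 39.3, and in each cell type pool 1 was the higher. Bnip3l, a mitophagy receptor, had NK values of 25.6 and 37.2 and T values of 34.1 and 42.9. Within each pool P4ha1 and Bnip3l were lower in NK cells than in T cells, but over both pools their groups overlapped. Neither passed the test (adjusted p = 0.689 and 0.819).

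Ddit4 and Mxi1 had higher values in pool 2 than in pool 1 in both cell types, as did Vegfa and Bnip3l. Ddit4 (REDD1), which restrains mTORC1 under stress, stood at 32.9 and 102 normalized CPM in NK pools 1 and 2, against 72.1 and 108 in T pools 1 and 2. NK pool 1 stood below the other 3 libraries, and NK pool 2 held 3.11 times its level (counting interval 2.42 to 4.03). Mxi1, an antagonist of Myc, had NK values of 13.0 and 28.7 and T values of 21.5 and 40.7, so pool 2 held 2.21 times pool 1 in NK cells (1.45 to 3.43) and 1.90 times in T cells (1.31 to 2.80). Ldha, by contrast, had higher values in pool 1 in both cell types.

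Bnip3, the mitophagy receptor related to Bnip3l, had its highest value in T pool 1 and its lowest in T pool 2. It stood at 19.9 and 26.2 normalized CPM in NK pools 1 and 2, against 31.9 and 9.92 in T pools 1 and 2. T pool 2 held 0.311 of T pool 1 (counting interval 0.190 to 0.496), close to the 0.309 of Aldoa and the 0.295 of Hk2. Of its 50-base words, 59.1% occur in other genes. Ankrd37, an ankyrin repeat protein, did not exceed 4.07 in any library, and Adm, the vasodilator adrenomedullin, had 3 reads in NK pool 2 and 0 in the other libraries. Adm was not tested, and for Ankrd37 a difference was not detectable at this depth (limma adjusted p = 0.991).

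Among other genes of these pathways, 1 passed the test. Over all genes tested, 2.33% passed in either direction, and the median log2 fold change was 0.02. Of 18 tested genes of glucose uptake, further glycolytic isoforms and pyruvate handling (25 listed) 0 were called, with a median log2 fold change of 0.27. The highest levels were those of Slc2a1, the glucose transporter GLUT1, at 94.0 and 101 normalized CPM in NK pools 1 and 2 against 90.3 and 53.5 in T pools 1 and 2, and Pdha1, a pyruvate dehydrogenase subunit, with NK values of 70.0 and 58.5 and T values of 103 and 71.6. Slc2a1 thus had its lowest value in T pool 2, as 9 of the 16 tested enzymes did. Of 7 pentose phosphate genes 0 were called (median 0.24), and the highest levels were those of Tkt, with NK values of 81.4 and 89.3 and T values of 79.3 and 65.6, and Taldo1, with NK values of 76.5 and 70.6 and T values of 82.0 and 48.5.

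Of 25 tested genes among 33 further HIF pathway genes and targets, 1 was called as higher in NK and 0 as higher in T. Over all genes tested these shares were 1.24% and 1.09%. The median log2 fold change of the 25 genes was 0.35, against 0.02 for all genes tested. The gene called was Hmox1, the heme-degrading enzyme heme oxygenase 1. It stood at 27.7 and 31.9 normalized CPM in NK pools 1 and 2 against 2.75 and 3.54 in T pools 1 and 2. Its log2 fold change was 2.89 (SE 0.55, limma adjusted p = 0.0215), and the difference was 2.93 in pool 1 and 2.86 in pool 2. With each library left out in turn its log2 fold change was between 2.76 and 3.03 and its adjusted p between 0.305 and 0.785, and limma called 0 genes at all. Such a fit leaves 1 library in a group, which is assumed to vary like the other group. Heme oxygenase is also a macrophage gene, and the macrophage sums given above were higher in NK cells within each pool. Hmox1 was higher in NK pool 2 than in NK pool 1, while the macrophage sum was lower. The part of macrophage RNA in this difference was not tested.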

How the data were processed

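RNA-seq of 4 libraries (NK and T cells, 2 pools of mice each) was deposited as 1 table of signal values normalized by the authors, with a column for each library. Per the labels' protocols, tumours were dissociated, filtered (70 um), enriched on Percoll and sorted. Tools named without roles in the submitters' processing notes are STAR 2.7.0f, Bowtie2 2.3.4.1, FastQC and limma, with the build GRCm38.p6. The sources used here do not give the counting tool or strand setting. Every value was a whole multiple of its library's smallest non-zero value (100% within 0.001 reads), which gave whole reads. Scaling factors of 1.10, 1.06, 0.878 and 0.975 equalled TMM factors recomputed from those reads. Rows without a symbol took 0.0198% to 0.0214% of reads.

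Genes with a mean of at least 1 were tested on log2(value + 1) with limma 3.58.1 in R 4.3.3 (trended eBayes, 2 residual degrees of freedom, no block), NK minus T. edgeR 4.0.16 and DESeq2 1.42.0 were run on recovered reads. The replicate number was taken as pairing from the series' design text, and across genes the pool differences of NK and T cells correlated at 0.161. Ratios of reads have exact 95% binomial intervals. Shared words were counted over GENCODE M21 transcripts. The code was also run on simulated counts with large planted changes and the same spread setting for all genes. That setting differs from these data, so it does not measure the error rate of the test here. Members and lists were chosen with earlier results of these data known. Named genes are all members, plus genes of the wider lists past the threshold or else the 2 most abundant.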

Additional observations from a re-analysis of the deposited data

How the results depend on the processing

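Limma called 282 genes of all tested, against 38 without a trend in the spread, 999 with the replicate block, 430 by DESeq2 and 0 with any library left out (752 to 1759 at an unadjusted p under 0.05). With a library left out its group holds 1 library, assumed to vary like the other group. The replicate block called 2 members (Hif1a and Vegfa) and changed no other member's call, and each other planned setting called 0. Hmox1 lost its call without a trend (limma adjusted p = 0.0742). The median of the enzymes ran from -0.31 to 0.73 with a library left out, that of the HIF targets from -0.14 to 0.19, and their difference from -0.17 to 0.54, against -0.01 with edgeR and -0.02 with DESeq2. Without members that share at least 20% of their 50-base words, an alternative added after seeing the data as was the sum of Eno1 and Eno1b, the median of the HIF targets was -0.23 over 8 genes and that of the enzymes 0.19 over 10.

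Of 488 values of single genes under 14 planned settings and the Eno1b sum, 24 changed sign. Hk2 did so with edgeR (-0.12 with TMM, -0.13 with DESeq2 size factors) and DESeq2 (-0.14). With a library left out, log2 fold changes ran from -0.72 to 0.94 for Hk2, -1.34 to 0.46 for Pfkm, -0.17 to 0.89 for Ldha, -0.15 to 0.22 for Pdk1, -1.40 to 0.21 for Ddit4, -0.40 to 0.47 for Ankrd37, -0.87 to 0.15 for Pfkl, -0.50 to 1.04 for Eno1 and -1.24 to 0.10 for Eno3. They ran from -0.34 to 0.65 for Hk1, -0.30 to 0.72 for Pfkp, -0.53 to 1.16 for Aldoa, -0.31 to 0.73 for Pkm, -0.46 to 1.13 for Bnip3 and -0.16 to 0.59 for Taldo1. Without T replicate 2 alone, 11 values changed sign. The cause of these changes was not tested. Genes with few reads (Pgam1, Adm, Ankrd37, Pfkm, Ldhb) are limited by depth.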

Other observations

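Some further genes of the HIF pathway and of pyruvate handling, chosen after their values were seen, are given as values, and none passed the limma test. Bhlhe40, a transcriptional repressor induced by hypoxia and by activation, stood at 432 and 633 normalized CPM in NK pools 1 and 2, against 180 and 303 in T pools 1 and 2 (log2 fold change 1.16, SE 0.35, limma adjusted p = 0.147). Plin2, which coats lipid droplets, stood at 47.2 and 47.2 in NK pools 1 and 2, against 29.7 and 5.67 in T pools 1 and 2 (adjusted p = 0.259 by limma). Epas1, which encodes HIF-2 alpha, stood at 4.47 and 15.6 in NK pools 1 and 2, against 15.97 and 24.4 in T pools 1 and 2 (adjusted p = 0.523 by limma). Dlat, a subunit of the pyruvate dehydrogenase complex, stood at 46.8 and 35.1 in NK pools 1 and 2, against 19.8 and 23.4 in T pools 1 and 2 (adjusted p = 0.426 by limma), without overlap between the cell types.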
